A study of Mus musculus with 8 samples.

Results

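The presynaptic vesicle release genes described here are 50 mouse genes that load, dock, prime, fuse and recycle synaptic vesicles. They were chosen by name from 5 roles, and all 50 were found among the 15978 rows of the authors' deposited table by the RefSeq accessions in the row names. The table compares brain RNA from 5 C9-BAC mice, males that carried a bacterial artificial chromosome (BAC, a cloned genomic insert of large size) holding human C9ORF72 and 500 G4C2 repeats, with that from 3 wild-type males. All 8 mice were of the mixed SJL/Bl6 background, and libraries were strand-specific and made from total RNA with no selection for poly(A). The labels give no age, brain region, transgenic line or batch, and samples with different numbers are treated as different mice. Expansion of this repeat in humans causes amyotrophic lateral sclerosis and frontotemporal dementia, and the comparison asks what its presence does to brain RNA.

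Release of transmitter starts when calcium enters the nerve terminal and binds a synaptotagmin on the vesicle. The vesicle is already held at the active zone, a protein scaffold of RIM, RIM-binding protein, Munc13, ELKS, liprin, Bassoon and Piccolo, and its SNARE protein VAMP is partly zippered with syntaxin and SNAP-25 of the plasma membrane under the clamp of complexin. Fusion follows, NSF and its SNAP adaptors take the SNARE complex apart, and the membrane is retrieved with the help of dynamin, amphiphysin, endophilin, synaptojanin and clathrin adaptors.

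No member passed the DESeq2 adjusted p of 0.05 between C9-BAC and wild-type brain, and neither did any other row as deposited (0 of 15944 rows with a p, 0.0%). Unadjusted, 2 of the 50 members had a p under 0.05 per the authors' deposited table, beside 1.5% of all rows: the plasma membrane SNARE gene Stx1a with a positive fold change (0.659% of rows were positive and under 0.05) and the calcium sensor gene Syt9 with a negative one (0.84% of rows). Single genes on either side are too few to set the members apart from the table. The file does not say which genotype is the numerator, so every sign here is as deposited and is never read as higher or lower in C9-BAC mice. The table holds 1 mean normalized count (read count divided by a size factor, averaged over the mice) and 1 fold change per gene, so values per mouse were not analysed here. All standard errors in the table are at most 0.11, a form that shrinkage of fold changes would give, so the sizes below may be too small. A single adjusted call would have needed a Wald statistic (the fold change divided by its standard error) of 4.662. The largest absolute statistic among the members was 2.293. With the members' median standard error, 4.662 is reached at 0.478 in deposited log2 units (1.39-fold). Deposited values over all rows ran only from -0.3184 to 0.3468. If they are shrunken, the change before shrinkage needed for a call was larger than 1.39-fold, by an amount the table does not give.

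Across the members per the authors' deposited table, 29 had a positive and 21 a negative log2 fold change, with a median of 0.022, while 47.5% of all rows with a p were positive with a median of -0.0043. The members ran from -0.22 (Syt9) to 0.25 (Stx1a) on the log2 scale per the authors' deposited table, which is 0.857-fold to 1.19-fold. An absolute log2 fold change above 0.1 was listed per the authors' deposited table for 14 members, 10 positive and 4 negative, that is 28.0% of the members beside 17.4% of all rows and 20.2% of rows whose mean count was 100 or more. The members are abundant genes, and whether abundance bears on that share was not tested. Their median mean normalized count per the authors' deposited table was 2297.2, at the 95.2nd percentile of the table. Of the 50, 49 were at 100 or more, and 35 were at 1000 or more. The 57 other release and recycling genes described below had a median at the 92.1st percentile, and 17.5% of them were above 0.1. Together the 50 members made up 1.878% of the summed mean normalized counts. In bulk brain RNA, fewer cells or terminals of a type and less RNA per cell cannot be told apart.

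**Figure D1:**
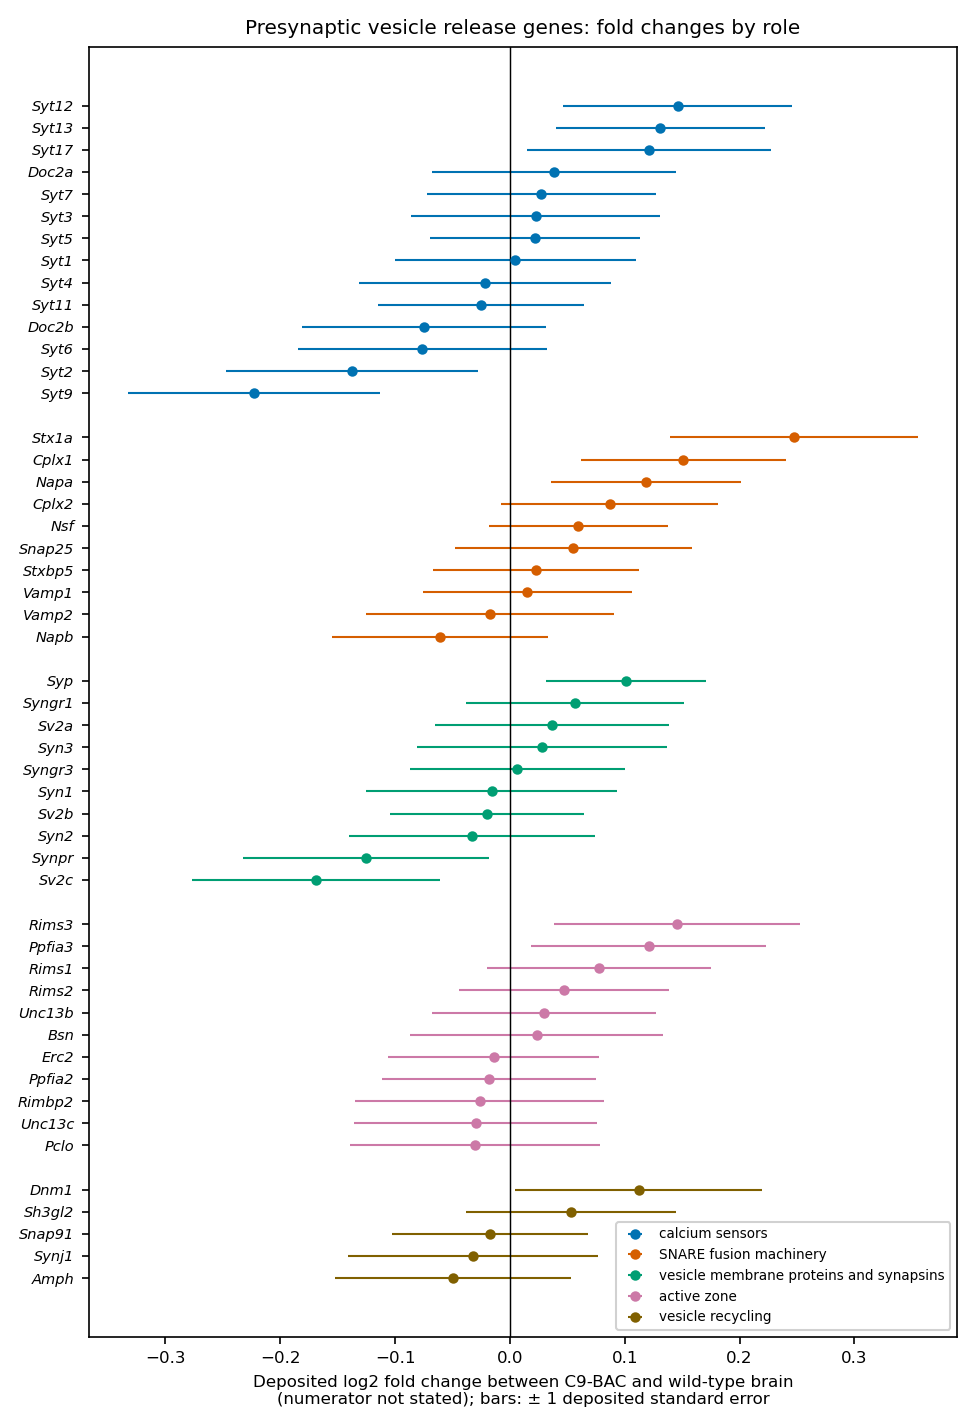
Deposited log2 fold change of each of the 50 members between C9-BAC and wild-type brain (5 and 3 mice, numerator not stated), grouped by role and ordered by value within a role; bars are 1 deposited standard error on each side. Stx1a at 0.25 and Syt9 at -0.22 lie farthest from 0, and most other members lie within 0.1 of it.

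**Figure D2:**
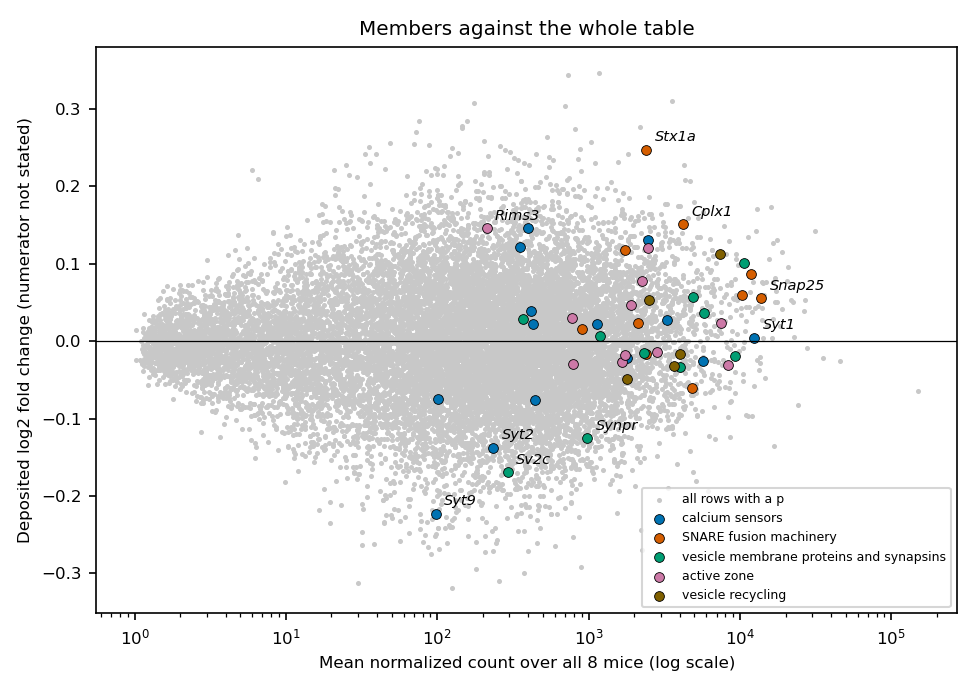
Deposited log2 fold change against the mean normalized count over all 8 mice (log scale) for all rows with a p (grey) and for the members, coloured by role. The members sit toward the abundant side of the table, and those with the most negative values, Syt9, Sv2c, Syt2 and Synpr, each have a mean normalized count under 1000.

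Levels between genes were compared as the mean normalized count per kilobase of transcript, a mean over both genotypes. Snap25, whose SNARE protein is held to the plasma membrane by lipid anchors, had the highest value, 8861.5 per kilobase, and Syp, which encodes the vesicle membrane protein synaptophysin, had 4092.6. Their order depends on the transcript: with the longest annotated transcript of each gene, a choice added after the data were seen, Syp had 3729.9 per kilobase and Snap25 2841.9. The disassembly ATPase gene Nsf followed at 2732.2, the fast calcium sensor gene Syt1 at 2599.2 and the complexin gene Cplx2 at 2386.4, and these places were the same with the longest transcript. At the low end came Doc2b at 23.0, Syt9 at 25.5 and Sv2c at 32.1 per kilobase. The median over all 50 members was 527.5 per kilobase, against 63.4 over all rows. With the longest transcript the median was 500.8, and Syt7 moved most in the order, by 19 places, to 494.2 from 2039.7 per kilobase with its linked transcripts. Without a spread between mice, neighbours in this order could not be told from one another by a test.

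**Figure D3:**
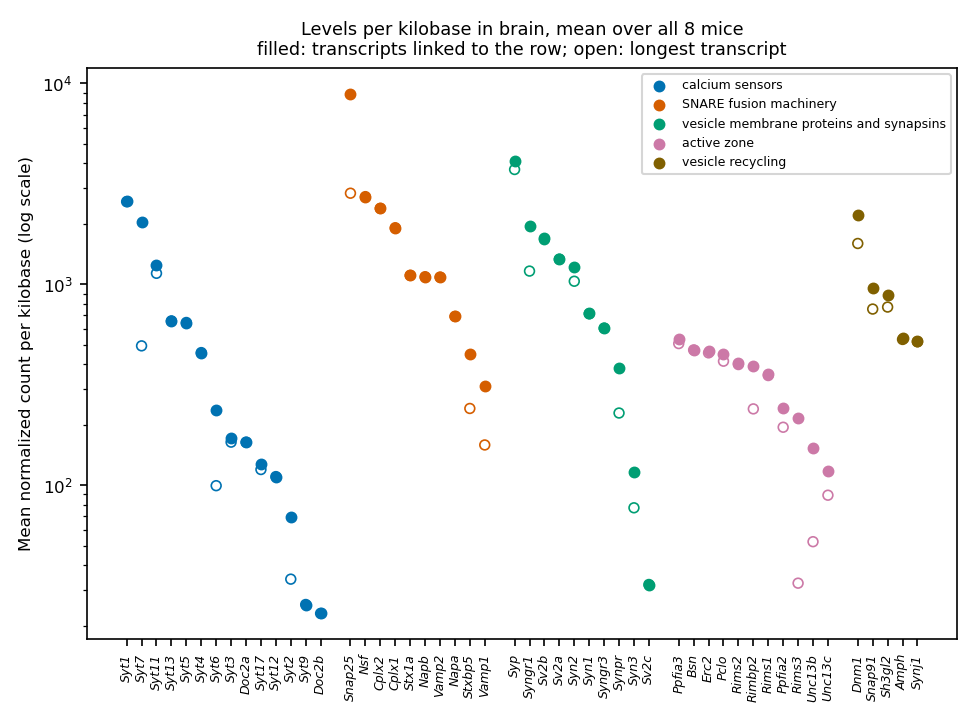
Mean normalized count per kilobase of transcript (log scale) for each member, mean over all 8 mice and both genotypes, grouped by role; filled points use the transcripts linked to the row and open points the longest annotated transcript. Levels span from 23.0 (Doc2b) to 8861.5 (Snap25), and the choice of transcript matters most for Rims3, Syt7, Snap25 and Unc13b.

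Among the 14 calcium sensor genes (12 synaptotagmins and both Doc2 genes) 8 were positive and 6 negative per the authors' deposited table, with a median log2 fold change of 0.013 and none past the threshold. Syt9, which encodes a fast sensor used by subsets of forebrain neurons, lies on chromosome 7 at 107370349 to 107548656 (GRCm38, the assembly also called mm10). Its mean normalized count was 97.4 and its log2 fold change -0.22 ± 0.11 per the authors' deposited table, where the value after ± is the deposited standard error, here and below (unadjusted p = 0.0425, DESeq2 adjusted p = 0.9997). By size of its statistic it was 196th of the 15944 rows. Syt2, the fast sensor of hindbrain synapses and of fast-spiking interneurons, was the next most negative sensor at -0.14 ± 0.11 per the authors' deposited table (p = 0.209). Syt1, the main fast sensor of forebrain synapses and the most abundant member of the family, was close to 0 at 0.0046 ± 0.10 per the authors' deposited table (p = 0.965).

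The positive end of the sensors held Syt12, Syt13 and Syt17. Syt12 was at 0.15 ± 0.10 (p = 0.143), Syt13 at 0.13 ± 0.09 (p = 0.148) and Syt17 at 0.12 ± 0.11 (p = 0.255) per the authors' deposited table. Syt12 and Syt13 encode synaptotagmins that do not bind calcium. Syt7, the high-affinity sensor of slow and facilitated release, was at 0.027, and the Doc2 genes, sensors linked to spontaneous release, were at 0.039 (Doc2a) and -0.075 (Doc2b) per the authors' deposited table. Syt4 and Syt11, a pair of related synaptotagmins with a changed calcium site, were at -0.022 and -0.025, and Syt3, Syt5 and Syt6 were at 0.022, 0.022 and -0.076 per the authors' deposited table.

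Of the 5 roles, the SNARE fusion machinery leaned most to one side as deposited, with 8 of 10 members positive beside 47.5% of all rows. Its median log2 fold change was 0.057 per the authors' deposited table, with none past the adjusted threshold. With GC content and length taken off, 8 of 10 SNARE genes and 9 of 11 active zone genes were positive. The members were chosen with earlier results known, so these counts are a description and were not tested. Stx1a encodes syntaxin 1A, the plasma membrane SNARE that pairs with SNAP-25 and VAMP2, and lies on chromosome 5 at 135023482 to 135051100 (GRCm38). The gene's mean normalized count was 2400.7 and its log2 fold change 0.25 ± 0.11 per the authors' deposited table (unadjusted p = 0.0219, DESeq2 adjusted p = 0.9997), and 95 rows had a smaller p.

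The partner SNAREs of syntaxin 1A lay nearer 0. Snap25 was at 0.055 ± 0.10 (p = 0.593), and the vesicle SNARE genes Vamp1 and Vamp2 were at 0.015 and -0.017 per the authors' deposited table. Cplx1, a complexin that clamps and then aids fusion, on chromosome 5 at 108518554 to 108550027, was at 0.15 ± 0.09 per the authors' deposited table (unadjusted p = 0.0905, DESeq2 adjusted p = 0.9997); 3.65% of all rows had a p under 0.1. Its relative Cplx2 was at 0.087 ± 0.09 per the authors' deposited table (p = 0.358). Stxbp5, which encodes tomosyn, an inhibitor of SNARE assembly, was at 0.023 per the authors' deposited table. Of the disassembly genes, Napa (alpha-SNAP) was at 0.12 ± 0.08 (p = 0.152), Nsf at 0.059 and Napb (beta-SNAP) at -0.061 ± 0.09 (p = 0.517) per the authors' deposited table.

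The 10 genes of vesicle membrane proteins and synapsins split evenly, 5 positive and 5 negative per the authors' deposited table, with a median log2 fold change of -0.0046. Syp was at 0.10 ± 0.07, the smallest standard error among the members (p = 0.149), while its relative Synpr, which encodes synaptoporin, a protein of mossy fibre and certain interneuron terminals, was at -0.13 ± 0.11 (p = 0.241) per the authors' deposited table. Sv2c, the SV2 isoform of basal ganglia and some brainstem terminals, was the most negative of this role at -0.17 ± 0.11 per the authors' deposited table (p = 0.117). The widely used isoforms Sv2a and Sv2b, whose proteins are also receptors for botulinum toxins, were at 0.037 and -0.020 per the authors' deposited table. The synapsin genes, whose proteins tether vesicles in the reserve pool, were at -0.016 (Syn1), -0.033 (Syn2) and 0.028 (Syn3) per the authors' deposited table, and the synaptogyrin genes at 0.056 (Syngr1) and 0.0065 (Syngr3).

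Of the 11 active zone genes 6 were positive and 5 negative per the authors' deposited table, with a median log2 fold change of 0.023, and no value below -0.031. Rims3, which encodes a short RIM protein, was at 0.15 ± 0.11 (p = 0.173), and the liprin-alpha gene Ppfia3 at 0.12 ± 0.10 (p = 0.238) per the authors' deposited table. The long RIM genes, whose proteins tie vesicles and calcium channels together, were at 0.078 (Rims1) and 0.047 (Rims2) per the authors' deposited table. The giant scaffold genes Bsn and Pclo were at 0.023 and -0.031, and the priming factor genes Unc13b and Unc13c at 0.029 and -0.030 per the authors' deposited table. Rimbp2, Erc2 and Ppfia2 lay between -0.026 and -0.014 per the authors' deposited table.

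The 5 recycling genes had 2 positive and 3 negative values per the authors' deposited table and a median log2 fold change of -0.017. Dnm1, the neuronal dynamin that cuts vesicles from the membrane, was at 0.11 ± 0.11 (p = 0.300), and Sh3gl2, which encodes endophilin A1, at 0.053 ± 0.09 (p = 0.559) per the authors' deposited table. The clathrin adaptor gene Snap91 (AP180) was at -0.017, the lipid phosphatase gene Synj1 at -0.032 and the membrane-bending protein gene Amph at -0.049 per the authors' deposited table.

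Related family members were set side by side in 21 pairs, 3 of which include a relative outside the 50 genes. The pair farthest apart per the authors' deposited table was Syp and Synpr, whose log2 fold changes differ by 0.226, followed by Sv2a and Sv2c (0.206) and by Napa and Napb (0.179). The median difference was 0.064, and in 15 of 21 pairs it was smaller than the root of the summed squares of both standard errors; the covariance of the estimates is not in the table, so no pair was tested. Levels within these families differed widely. Syp was 10.66 times as high as Synpr per kilobase, Sv2a 41.62 times as high as Sv2c, and Syt1 37.51 times as high as Syt2, each over both genotypes. The sign of the difference between Unc13b and Unc13c in level depends on the transcript, with a ratio of 1.30 for the linked transcripts and 0.59 for the longest ones. No pair shares a stretch of 50 bases, so reads of that length from one gene do not match its listed relative exactly.

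Upstream sequences are shown for the members at the ends of the range whose window holds no annotated exon, and for Sv2b as the abundant relative of Sv2c. Each is the 250 bases before a gene start in RefSeq (GRCm38.p6), 5' to 3' on the gene's strand, with GC boxes (GGGCGG or its reverse complement, a motif bound by the Sp1 family) in capitals. The Stx1a window is chr5:135023232-135023481 on the plus strand, with 1 GC box; that of Sv2c is chr13:96132578-96132827 on the minus strand, with 2; and that of Sv2b is chr7:75309263-75309512 on the minus strand, with none.
Stx1a: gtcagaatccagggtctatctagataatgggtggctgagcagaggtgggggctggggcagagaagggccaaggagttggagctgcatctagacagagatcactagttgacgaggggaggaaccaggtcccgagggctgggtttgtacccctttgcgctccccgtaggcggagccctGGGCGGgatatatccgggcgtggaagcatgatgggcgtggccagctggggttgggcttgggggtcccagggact
Sv2c: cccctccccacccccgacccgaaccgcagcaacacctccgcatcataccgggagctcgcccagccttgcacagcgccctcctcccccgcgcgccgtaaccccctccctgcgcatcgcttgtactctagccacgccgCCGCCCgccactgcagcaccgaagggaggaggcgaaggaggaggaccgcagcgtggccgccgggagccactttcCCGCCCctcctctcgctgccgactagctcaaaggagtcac
Sv2b: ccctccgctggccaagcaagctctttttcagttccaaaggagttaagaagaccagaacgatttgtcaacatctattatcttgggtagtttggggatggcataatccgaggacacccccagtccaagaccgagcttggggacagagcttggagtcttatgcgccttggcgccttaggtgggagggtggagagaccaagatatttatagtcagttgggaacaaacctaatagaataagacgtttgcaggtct
A window was found for 37 members, 47 windows in all. A GC box on either strand was present in 29 of the 47 windows (61.7%) and in 32.7% of the 32851 windows of the whole RefSeq table. The windows of Stx1a and Sv2c, which lie at opposite ends of the fold changes, both hold it. The cAMP response element TGACGTCA was in the windows of Sh3gl2 and Syn1 (2 of 47, beside 1.5% of all windows). The E-box CACGTG was in 6 of 47 (6.0% of all) and CCAAT in 10 of 47 (33.8% of all). TATAAA or its reverse complement was in 2 of 47 (12.4% of all), both of them windows of Sv2b. The Sv2b window shown above holds it only as the reverse complement, TTTATA. The median GC content was 62.4% in the members' windows and 52.4% in all windows. Across the 37 members, GC content of the window and the log2 fold change had a Spearman's rho of -0.069, a description over genes that share the same mice.

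Fold changes followed the GC content of the transcript, in the members as in the whole table. Across the 50 members Spearman's rho was 0.445 and Pearson's r 0.432, and across 13555 rows whose mean count was 10 or more they were 0.418 and 0.412; genes are not independent replicates, and all values come from the same 8 mice. In the highest of 5 equal classes of GC content (above 56.1%), 11 of 12 members were positive per the authors' deposited table, beside 66.3% of all rows there. In the lowest class (up to 44.7%) 0 of 4 members were positive per the authors' deposited table, beside 23.8% of all rows. Transcripts of the positive members had a median GC content of 54.9%, those of the negative members 49.2% and those of all rows 50.5%. With the trend of the fold change with GC content and transcript length over all rows taken off, the members' median was 0.0068 and 30 of 50 were positive, beside 49.8% of all rows. Stx1a (58.5% GC) was then at 0.21, Syt9 (50.9% GC) at -0.23, Sv2c at -0.15 and Synpr, with the lowest GC content of all members (40.3%), at -0.070.

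**Figure D4:**
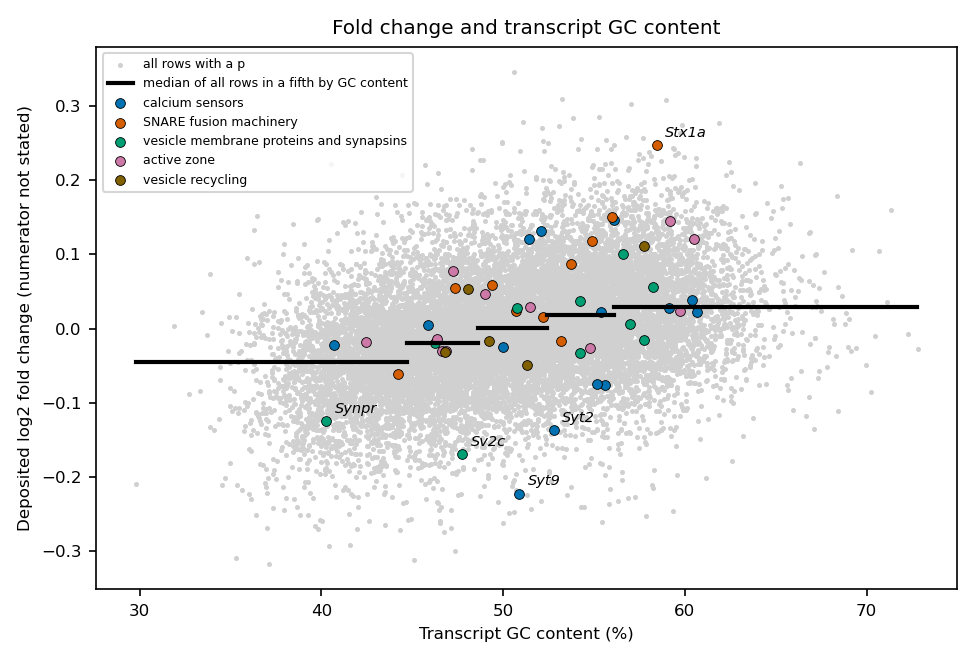
Deposited log2 fold change against transcript GC content (%) for all rows with a p (grey) and the members, coloured by role; black lines are the medians of all rows in 5 equal classes of GC content. The medians climb with GC content, from -0.045 in the lowest class to 0.029 in the highest, and the members rise with it too (rho 0.445), with Syt9, Sv2c and Syt2 lying below it.

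Other genes of the pathway were listed from textbook roles. Of 57 further release and recycling genes, among them the Munc18, Munc13-1, Rab3, CAPS, clathrin and AP2 genes, 32 were positive and 25 negative per the authors' deposited table, with a median log2 fold change of 0.011, and 0 were under an unadjusted p of 0.05. The smallest p values belonged to Tspoap1, a RIM-binding protein gene, at 0.15 ± 0.09 (p = 0.0709), and Pip5k1c, whose enzyme makes the phosphoinositide that recruits endocytic proteins, at 0.18 ± 0.10 (p = 0.0772) per the authors' deposited table. Of the vesicle transporters that fill vesicles with transmitter, 6 of 7 were in the table. Their mean normalized counts ran from 5.6 to 11386.7, and 1 was positive and 5 negative, with a median log2 fold change of -0.030 per the authors' deposited table. Slc17a7, the glutamate transporter of cortical terminals, had 11386.7 mean normalized counts and a log2 value of 0.044 per the authors' deposited table. Slc17a6, its subcortical relative, had 159.7 and a log2 value of -0.15 ± 0.11 per the authors' deposited table (p = 0.154). Slc17a8 was at -0.084 (p = 0.379), and the GABA transporter gene Slc32a1 at -0.0035 per the authors' deposited table.

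Markers of brain cell types were listed beside these, and their part in the members' values was not tested. The 15 neuron markers from outside the synapse had mean normalized counts of 810.3 to 8542.1 per the authors' deposited table, and 11 were positive and 4 negative, with a median log2 fold change of 0.035. Stmn2 was at 0.14 and Map2 at -0.12 per the authors' deposited table (p = 0.175 and 0.162). Of the 12 astrocyte markers 3 were positive and 9 negative, with a median of -0.021 per the authors' deposited table. Aldh1l1 and Fgfr3, with the smallest p values, were among the positive ones at 0.093 and 0.088. The most negative was Slc1a3 at -0.069 per the authors' deposited table. Of the 12 oligodendrocyte lineage markers 6 were positive (median -0.0020), led by Cspg4 at 0.19 (p = 0.0702) and Mog at 0.14 per the authors' deposited table. The 12 microglia markers had 4 positive values (median -0.029), with Aif1 at -0.13 per the authors' deposited table. The 12 endothelial and mural markers had 10 positive values (median 0.052), with Pecam1 at 0.17 and Cldn5 at 0.12 per the authors' deposited table.

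**Figure D5:**
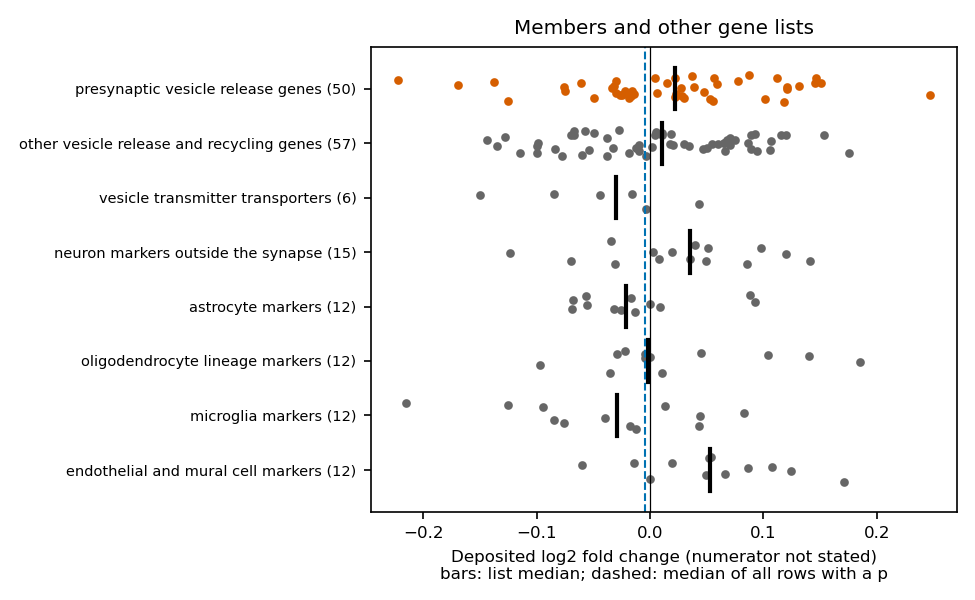
Deposited log2 fold changes of the 50 members (orange) and of 7 other gene lists (grey), 1 point per gene with vertical scatter for legibility; black bars are list medians and the dashed line is the median of all rows with a p. The members' median of 0.022 lies between those of the other release genes (0.011) and the neuron markers (0.035), and each list holds values on both sides of 0.

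For 15 members an annotated exon overlaps an exon of another gene, in 5 of them over more than 10% of their exon bases. Doc2a overlaps Ino80e on the opposite strand over 37.5% of its exon bases, and Ppfia2 overlaps Acss3 over 27.4%. Mean normalized counts were 131.4 for Ino80e and 6.3 for Acss3, with log2 fold changes at 0.085 and -0.095 per the authors' deposited table. Syp (33.8%), Syt4 (14.5%) and Syt12 (13.0%) overlap antisense or noncoding transcripts. The sources used here do not give whether the authors' counting used strand, so these 5 values are uncertain. Stretches of 50 bases shared with transcripts of other genes, on either strand, made up more than 10% in 6 members. These are the same 5 and Syn3 (14.18%, with Timp3 as the gene sharing most), whose value is uncertain too.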

How the data were processed

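The only processed values used are the authors' own comparison of 5 C9-BAC and 3 wild-type brains, with 6 columns. Trimmomatic, Bowtie2, DESeq and DESeq2 with build mm10 are named per the submitters' processing notes; the sources used here do not give the counter, annotation or filters. Per the file headers, the table holds a mean normalized count (a signal over all samples), a fold change with standard error in log2 units, a Wald statistic (a score), a p-value and an adjusted p-value, all deposited by the authors. Recomputed statistics, p-values and Benjamini-Hochberg values differed from these by at most 8.3e-07, 8.8e-10 and 5.3e-12. Depth per mouse is unknown; the mean normalized counts sum to 9226666.

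Symbols came from RefSeq accessions (15857 rows) and GENCODE vM21 (73 rows); GC content and length are medians over linked GENCODE transcripts (98.6% of rows). Trends with GC content and log2 length were fitted as cubics over all rows (numpy 2.4.6, scipy 1.17.1, Python 3.11.15), and the routines were tested on simulated data. If samples are not separate mice, p-values measure technical spread. Named are, per role, the 2 members of smallest p and the most abundant per kilobase, members with p under 0.1, the 3 most positive and negative, the 3 pairs farthest apart, and 2 genes of smallest p per further list; other members are given by value for completeness. Some genes outside the members that this rule names are not reported here. Members and lists were chosen with earlier results of these data known. A planned protein identity of pairs was replaced by shared stretches of 50 bases.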

Additional observations from a re-analysis of the deposited data

How the results depend on the processing

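No member passed an adjusted p of 0.05 as deposited, after adjustment over rows whose mean count was 10 or more or 100 or more, after rescaling the statistic to an empirical null (smallest adjusted p = 0.523) or with GC content and length taken off as well (smallest adjusted p = 0.369). Over all rows, rescaling alone gave 0 calls at that threshold and, with GC content and length taken off as well, 5 rows passed it, none of them a member. The 2 members under an unadjusted p of 0.05 became 5 of 50 with GC content and length taken off and the statistic rescaled (Stx1a, Syt9, Cplx1, Syt2 and Sv2c; 6.22% of all rows), 3 with rescaling alone (5.11% of all rows), and 1 among members whose mean count was 100 or more, because Syt9 falls below that minimum. The median log2 fold change of 0.022 was 0.0068 with GC content and length taken off, and 0.0178 to 0.0263 under the other alternatives. Positive members numbered 29 or 30 throughout, but the signs of single members near 0 were not stable. With GC content and length taken off, Syt3, Syt5, Syt7 and Syngr3 turned negative. Syt4, Sv2b, Pclo, Erc2 and Ppfia2 turned positive. The calcium sensor genes then had 6 positive and 8 negative values. The 17 named members kept their sign under both alternatives run for them (34 of 34 values). Subtracting the median of all rows (-0.0043) could not reverse any of them, since no named member lay between that value and 0. Many were named for a small p or a fold change far from 0, so their signs do not stand for those of the other members. Leaving out a mouse was not run, since the table holds 1 value per gene. No paired analysis was possible because the genotypes share no replicate numbers and the table has no value per mouse. The standard errors, at most 0.11, and the unknown depth per mouse limit every value above.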
